A study of Mus musculus with 10 samples.

Results

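Extracellular ATP and its breakdown products act on macrophages through surface receptors, and 10 mouse genes of this system are described here: the ATP-gated channel genes P2rx4 and P2rx7, the nucleotide receptor genes P2ry2, P2ry6, P2ry13 and P2ry14, the ectonucleotidase genes Entpd1 and Nt5e, and the adenosine receptor genes Adora2a and Adora2b. They were taken by gene symbol from a table of 56980 genes, each symbol stood on 1 row, and all 10 were among the 14436 genes with enough counts to be tested. RNA-seq counts came from 10 libraries of mouse macrophages, 5 with Jaml removed in macrophages (KO, called both a knockout and a knockdown in the labels) and 5 with Jaml intact (WT). Jaml encodes the junctional adhesion molecule-like protein. All 10 libraries came after 8 h of LPS (bacterial lipopolysaccharide, sensed by TLR4) at 100 ng/ml, followed by 30 min of 5 mM ATP. ATP, a direct agonist of only some of these receptors, was thus added in every library. No library without added ATP was analysed here. The comparison asks how the RNA of these genes differed between genotypes under that shared treatment. The labels name no Cre line, promoter or tissue of origin for the macrophages.

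ATP released by stressed or dying cells opens the ATP-gated channels, and the P2rx7 channel, which needs high ATP, lets potassium leave the cell and thereby triggers the NLRP3 inflammasome. The G protein-coupled nucleotide receptors respond to ATP, ADP, UTP, UDP or UDP-sugars. On the cell surface the enzyme CD39 (Entpd1) strips ATP and ADP to AMP, CD73 (Nt5e) turns AMP into adenosine, and adenosine acts on the receptors encoded by Adora2a and Adora2b, which raise cAMP and are known to restrain inflammatory output of macrophages.

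Libraries held 19378160 to 22766319 counts in KO and 19319512 to 21230317 in WT. Only the WT columns of the deposited table match the labels. The remaining 5 columns have a heading found in no label and are read here as KO by elimination, and all directions given depend on this reading. Jaml could not check it, since no library had more than 2 counts of it. Macrophage markers were abundant in both genotypes: Adgre1, the gene of a surface marker of mouse macrophages, averaged 1535 ± 64.3 CPM in KO and 1555 ± 15.1 CPM in WT (mean ± SD, n = 5 each, as for all CPM values below). Of the 8 markers listed, 2 were higher in KO (Csf1r and Cd14, edgeR adjusted p = 0.00857 and 0.00953) and 2 lower (Fcgr1 and Mertk, 1.76e-07 and 0.00127). Fcgr1, a receptor of IgG, was 3.08-fold lower, at 59.1 ± 7.64 CPM in KO and 182 ± 10.7 CPM in WT. CPM are counts scaled by library size and composition. KO 1 and KO 3 stood apart from the other KO libraries on the second principal component (27.6 and 37.6, against -16.6 to -5.66), which held 17.7% of the variance. The labels do not name an animal or culture for each library. Each p-value therefore reflects library-to-library spread, some of which may be technical.

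Of the 10 genes, 5 were lower in KO (Adora2a, Entpd1, Adora2b, P2ry2 and P2rx4), none was higher, and 5 did not pass (P2rx7, P2ry6, P2ry13, P2ry14 and Nt5e), in edgeR's quasi-likelihood test at an adjusted p under 0.05 over all tested genes. At the same threshold 29.1% of all tested genes were called, 15.0% lower and 14.1% higher in KO. At an unadjusted p under 0.05 none of the 10 was higher either, and none was called higher by the DESeq2 Wald test or limma-voom. The median log2 fold change of the 10 genes was -0.143 (KO minus WT), beside 0.00556 over all tested genes. Calls of Adora2a, Entpd1 and Adora2b kept their side and direction under all 19 alternative settings, whereas those of P2ry2 and P2rx4 did not. With library totals in place of composition scaling, the median of all genes moved to 0.122 and the 10 genes split into 3 lower and 2 higher (P2ry6 and Nt5e). Relative to that shifted median the fold changes were close to those first given, for example -0.84 for Adora2a, -0.51 for Entpd1 and -0.19 for P2rx4 on the log2 scale. Subtracting the same median from every gene largely returns the composition-scaled values, so this closeness cannot tell which scaling is right. In bulk RNA, fewer cells of a type and less RNA per cell cannot be told apart.

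**Figure D1:**
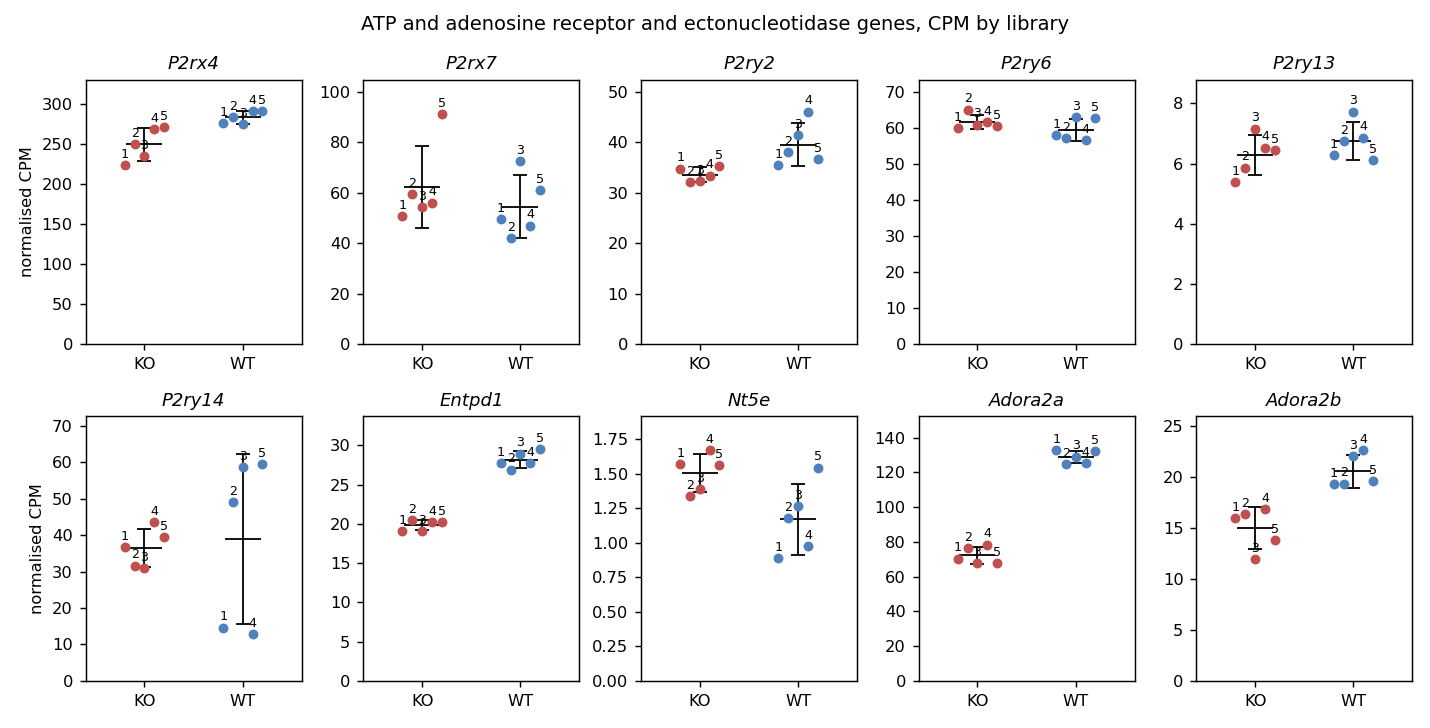
Normalised CPM of the 10 genes in each library (points, numbered by library), KO left of WT, with mean and SD as black bars. Adora2a, Entpd1, Adora2b, P2ry2 and P2rx4 show 5 KO values wholly below the 5 WT values; P2ry14 splits within WT, with WT 1 and WT 4 at 14.7 and 12.95 CPM.

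The largest difference among the 10 genes was that of an adenosine receptor gene, Adora2a. Adora2a, the high-affinity receptor that couples to cAMP and is known to be induced by LPS in macrophages (ENSMUSG00000020178, chromosome 10, 75152711 to 75170618 as the table lists it), had 70.5, 76.6, 67.7, 78.4 and 67.9 CPM in KO 1 to KO 5. In WT 1 to WT 5 it had 133, 125, 129, 126 and 132 CPM. The highest KO library thus lay far below the lowest WT library, and each genotype was tight around its mean. Adora2a was 1.78-fold lower in KO, a log2 fold change of -0.84 ± 0.05 (± SE, as for each fitted log2 fold change; 95% interval -0.94 to -0.73; edgeR adjusted p = 3.73e-07). It had the smallest p of the 10 genes.

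Adora2b, the low-affinity adenosine receptor (ENSMUSG00000018500, chromosome 11, 62139810 to 62157279), had 15.9, 16.4, 11.9, 16.8 and 13.8 CPM in KO 1 to KO 5 and 19.3, 19.3, 22.0, 22.6 and 19.6 CPM in WT 1 to WT 5. Again no KO library reached a WT library, with KO 3 the lowest of all. The gene was 1.37-fold lower in KO (-0.46 ± 0.10 on the log2 scale; 95% interval -0.67 to -0.25; edgeR adjusted p = 0.00365). In all, 5 of the 10 genes had non-overlapping groups, each with KO lower; groups did not overlap for 23.3% of all tested genes, with KO lower for 12.4%.

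Adora2a was lower by more than Adora2b, and this was tested inside each library, where the scaling between libraries cancels. The log2 ratio of Adora2b to Adora2a counts was -2.28 ± 0.14 in KO and -2.65 ± 0.13 in WT (mean ± SD, n = 5 each), so the ratio was 1.30-fold higher in KO (exact permutation test, two-sided, p = 0.0159; Benjamini-Hochberg adjusted 0.0265 over 5 ratios; the smallest p the design allows is 0.00794). KO 3, at -2.51, overlapped the WT range of -2.78 to -2.47. The other adenosine receptor genes were scarce. Adora3 averaged 2.13 CPM in KO and 2.04 CPM in WT (edgeR adjusted p = 0.816), and Adora1, with at most 5 counts in a library, was not tested.

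The ectoenzymes that supply adenosine differed from each other. Entpd1 (ENSMUSG00000048120, chromosome 19, 40600810 to 40730046) had 19.1, 20.5, 19.1, 20.2 and 20.2 CPM in KO 1 to KO 5, against 27.7, 26.9, 28.9, 27.7 and 29.6 CPM in WT 1 to WT 5. Spread within a genotype was small beside the gap between them. The gene was 1.42-fold lower in KO (-0.51 ± 0.04 on the log2 scale; 95% interval -0.61 to -0.41; edgeR adjusted p = 6.22e-06). A processed pseudogene inside its span, Gm8783, had 424 to 540 counts in KO and 426 to 544 in WT (log2 fold change -0.09, edgeR adjusted p = 0.366). How the authors' counting treats reads shared by overlapping genes is not given in the sources used here.

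Nt5e (ENSMUSG00000032420, chromosome 9, 88209250 to 88254145) was near the lower end of what could be tested, with 31 to 34 counts per KO library and 18 to 31 per WT library. It had 1.57, 1.34, 1.39, 1.67 and 1.56 CPM in KO 1 to KO 5, against 0.889, 1.18, 1.26, 0.973 and 1.54 CPM in WT 1 to WT 5. The groups overlapped through WT 5 alone. The log2 fold change was 0.36 ± 0.17 (95% interval -0.02 to 0.74) and did not pass (edgeR adjusted p = 0.145); with library totals it did (adjusted p = 0.0432; over the 18 alternatives that tested it 0.0432 to 0.299).

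Inside a library, the balance of the successive enzymes differed between genotypes. The log2 ratio of Nt5e to Entpd1 counts was -3.70 ± 0.14 in KO and -4.59 ± 0.27 in WT (n = 5 each), a ratio 1.84-fold higher in KO, with every KO library above every WT library (exact permutation p = 0.00794, the smallest the design allows; adjusted 0.0198 over 5 ratios). Entpd1 counts outnumbered Nt5e counts in all 10 libraries.

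Marker lists of other cell types are given as summed levels, with no test of a sum; CD39 and CD73 are known on several of these cells. The endothelial and platelet list of 8 genes summed to 10.8 to 12.9 CPM in KO and 23.8 to 29.0 CPM in WT, mostly Kdr, which averaged 8.43 CPM in KO and 23.1 CPM in WT. Its endothelial members Cdh5 and Pecam1 averaged 2.82 and 0.130 CPM in KO and 2.87 and 0.122 CPM in WT, and the platelet gene Gp9 had no count. The fibroblast and mesothelial list of 10 genes summed to 598 to 768 CPM in KO and 576 to 637 CPM in WT, led by Col1a1, which averaged 318 CPM in KO and 245 CPM in WT. Of its 9 tested genes 3 were higher in KO (Col1a1, Col1a2 and Dcn) and 2 lower (Pdgfra and Upk3b). Among all tested genes, 14.1% were called higher and 15.0% lower in KO. Pdgfra averaged 13.1 CPM in KO and 26.5 CPM in WT, and Upk3b 0.212 CPM in KO and 1.41 CPM in WT. Col3a1, Msln, Krt19 and Wt1 did not pass. Msln ran from 0.302 to 11.4 CPM in KO and from 5.03 to 9.74 CPM in WT. The T cell list of 8 genes summed to 2.28 to 3.34 CPM in KO and 3.05 to 3.95 CPM in WT, with Cd3e at 0 throughout. The B cell list of 7 summed to 89.7 to 100.5 CPM in KO and 66.4 to 91.2 CPM in WT, nearly all of it Cd22, which was called higher in KO, while Ighm was called lower, at 0.502 CPM in KO and 1.90 CPM in WT. The mast cell list of 8 summed to 8.67 to 10.7 CPM in KO and 16.9 to 23.5 CPM in WT, led by Hdc. The neutrophil list of 8 summed to 23.2 to 27.2 CPM in KO and 14.95 to 19.2 CPM in WT. It was mostly S100a8, at 21.5 CPM in KO and 14.6 CPM in WT, with Camp at 3.27 CPM in KO and 2.25 CPM in WT. S100a9, Ly6g, Mpo, Elane and Retnlg averaged at most 0.0947 CPM in either genotype. The dendritic cell list of 7 summed to 3.31 to 5.09 CPM in KO and 2.41 to 4.19 CPM in WT, led by Batf3 and with Xcr1 and Siglech at 0. The NK cell list of 6 reached at most 0.393 CPM in KO and 0.161 CPM in WT, led by Klrb1c, with Ncr1 and Klrd1 at 0. The part of such cells in the values of these genes was not tested.

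Promoter sequence is shown for Entpd1, Nt5e and Adora2b, the members of the adenosine route for which a window was at hand, because they differ in the counts of the GC box GGGCGG, the core motif of Sp1-family factors. Each window is the 250 bases before the RefSeq gene start in GRCm38.p6, on the plus strand: chr19:40612116-40612365 for Entpd1, chr9:88327359-88327608 for Nt5e and chr11:62248734-62248983 for Adora2b. Capitals mark GC boxes read on either strand.
Entpd1: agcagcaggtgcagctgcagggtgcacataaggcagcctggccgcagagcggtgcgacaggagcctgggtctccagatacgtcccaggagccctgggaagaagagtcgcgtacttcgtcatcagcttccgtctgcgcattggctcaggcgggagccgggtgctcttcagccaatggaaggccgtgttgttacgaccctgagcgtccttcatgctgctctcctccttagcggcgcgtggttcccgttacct
Nt5e: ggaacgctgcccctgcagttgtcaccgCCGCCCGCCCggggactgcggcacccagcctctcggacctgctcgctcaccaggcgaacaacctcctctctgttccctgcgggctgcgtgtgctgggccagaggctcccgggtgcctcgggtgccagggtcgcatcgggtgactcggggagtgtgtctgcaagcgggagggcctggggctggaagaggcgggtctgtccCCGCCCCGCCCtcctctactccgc
Adora2b: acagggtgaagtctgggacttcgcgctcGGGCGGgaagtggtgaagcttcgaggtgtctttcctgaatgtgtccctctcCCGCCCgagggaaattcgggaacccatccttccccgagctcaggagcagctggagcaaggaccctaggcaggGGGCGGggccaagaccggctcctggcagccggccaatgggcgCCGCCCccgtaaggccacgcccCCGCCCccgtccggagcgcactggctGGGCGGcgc
Entpd1 held 0 GC boxes, Nt5e 4 and Adora2b 6, and 32.7% of 32851 mouse promoter windows of this length held at least 1. G and C made up 62.4% of the bases for Entpd1, 72% for Nt5e and 69.6% for Adora2b, beside a median of 52.4% over all windows. The background share was not matched for this. The windows of Entpd1, Nt5e and Adora2b are shown because they differ. Of all 14 windows at hand for the 10 genes, 5 held a GC box, a share near that of all windows. Windows of the same gene can overlap and were counted separately, so that share depends on the counting. Those with a GC box belonged to P2rx7, P2ry2 (overlapping windows), Nt5e and Adora2b. Matches may overlap each other and matches to a kB-type motif, which 45.8% of all windows held. The 14 windows belong to 8 of the 10 genes. None of the 14 held TGACGTCA (1.55% of all windows), TTCNNNGAA (7.02%) or the interferon-stimulated response element (2.98%), 7 held the kB-type motif and 1 held ACGTG (16.6% of all windows). Both strands were read, and a match describes letters only.

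**Figure D2:**
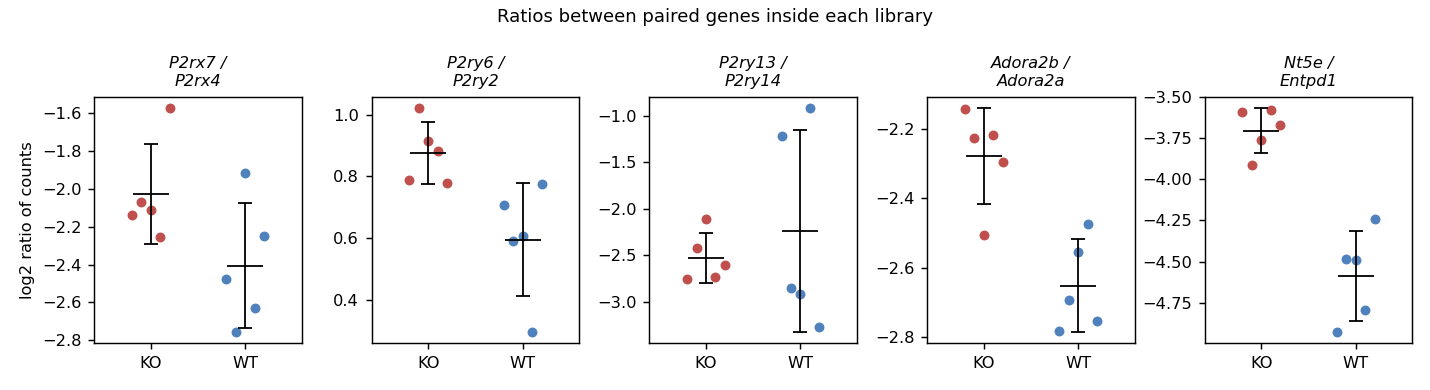
Log2 ratio of counts between paired genes inside each library (points), KO left of WT, with mean and SD as black bars. Nt5e over Entpd1 and P2ry6 over P2ry2 show 5 KO values wholly above the 5 WT values, and P2ry13 over P2ry14 splits within WT.

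The ATP-gated channel genes lie 16.1 kb apart on chromosome 5. P2rx4, a channel opened by lower ATP than P2rx7 (ENSMUSG00000029470, 122845607 to 122867801), had 223, 249.5, 235, 268 and 271 CPM in KO 1 to KO 5, against 276, 283, 274, 291 and 291 CPM in WT 1 to WT 5. KO 5 stayed just under WT 3, so the groups did not overlap, but the margin was small. The gene was 1.14-fold lower in KO (-0.18 ± 0.05 on the log2 scale; 95% interval -0.30 to -0.07; edgeR adjusted p = 0.024). That call was lost with library totals (adjusted p = 0.253), without KO 3, WT 4 or WT 5 (0.0533, 0.0566 and 0.055), without a low-count filter (0.0521) and without both KO 1 and KO 3 (0.0761), where the log2 fold change was -0.11.

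P2rx7, the channel upstream of NLRP3 (ENSMUSG00000029468, 122781974 to 122829495), had 50.8, 59.5, 54.3, 56.2 and 91.1 CPM in KO 1 to KO 5 and 49.6, 41.9, 72.7, 47.0 and 61.1 CPM in WT 1 to WT 5. KO 5 lay above every other library, the other KO libraries were close together, and WT values spread widely. The highest library exceeded the lowest 1.79-fold in KO and 1.74-fold in WT, against medians of 1.18 in KO and 1.16 in WT over the 8895 tested genes with a mean of at least 200 counts; P2rx7 ranked 380 in KO and 386 in WT among them. Its log2 fold change was 0.19 ± 0.18 (95% interval -0.20 to 0.59; edgeR adjusted p = 0.473), and 0.02 without KO 5. A change of the size seen in Adora2a lies outside that interval in either direction.

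The log2 ratio of P2rx7 to P2rx4 counts was -2.03 ± 0.26 in KO and -2.41 ± 0.33 in WT (n = 5 each; exact permutation p = 0.103, adjusted 0.129). Without WT 3 the adjusted p was 0.0298. By the pattern over the 10 libraries, P2rx7 was most like Gm11539, a processed pseudogene, Fcer1g, the signalling chain of Fc receptors, and Nynrin (Pearson's r = 0.92, 0.90 and 0.88 on log2 CPM, among 11851 genes). None of the 3 passed edgeR's test between genotypes. KO 5 and WT 3 had the highest P2rx7 values, at 91.1 and 72.7 CPM, and r without these libraries was not computed. Adora2a was most like Ehd1, an endocytic recycling gene, Coro2a, a coronin, and Ptafr, the receptor of platelet-activating factor (r = 0.999, 0.998 and 0.998), all of them lower in KO, so the gap between genotypes sets much of these values. All 10 libraries enter each r, and they share depth and scaling.

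**Figure D3:**
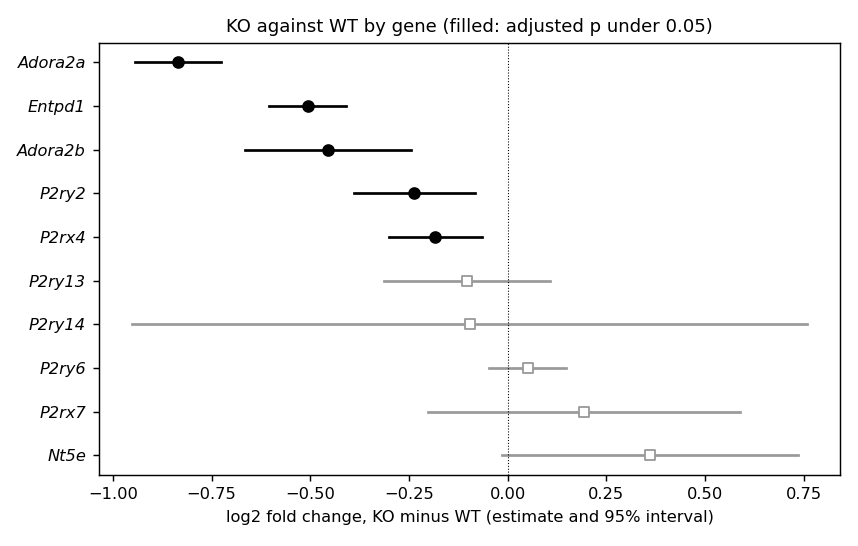
Log2 fold change, KO minus WT, of each gene (points) with its 95% interval (lines); filled circles passed at an adjusted p under 0.05 and open squares did not. The interval of P2ry14 runs from -0.95 to 0.76, the widest of the 10, and those of Adora2a, Entpd1, Adora2b, P2ry2 and P2rx4 lie below 0.

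Among the 4 genes of G protein-coupled nucleotide receptors, P2ry2 was lower in KO and P2ry6, P2ry13 and P2ry14 did not pass. P2ry2, the receptor of ATP and UTP (ENSMUSG00000032860, chromosome 7, 100645775 to 100662073), had 34.7, 32.0, 32.3, 33.4 and 35.3 CPM in KO 1 to KO 5 and 35.5, 38.0, 41.4, 46.0 and 36.6 CPM in WT 1 to WT 5. The highest KO library came close to the lowest WT library without reaching it. P2ry2 was 1.18-fold lower in KO (-0.24 ± 0.07 on the log2 scale; 95% interval -0.39 to -0.08; edgeR adjusted p = 0.0251). Its call was lost without KO 2, KO 3, KO 4, WT 3 or WT 4 (adjusted p 0.0503 to 0.0705), with library totals (0.214), without a low-count filter (0.0703), with the replicate number as a block (0.0578) and without both KO 1 and KO 3 (0.0726).

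P2ry6, the receptor of UDP (ENSMUSG00000048779, 100586837 to 100623856), is its neighbour at a distance of 21.9 kb. It had 60.0, 65.1, 60.9, 61.5 and 60.5 CPM in KO 1 to KO 5 and 57.9, 57.3, 63.0, 56.5 and 62.7 CPM in WT 1 to WT 5, with overlapping groups. The log2 fold change was 0.05 ± 0.04 (95% interval -0.05 to 0.15; edgeR adjusted p = 0.441; with library totals 0.17, adjusted p = 0.00582; over the 19 alternatives 0.00582 to 0.673). Relative to P2ry2 it was higher in KO: the log2 ratio of P2ry6 to P2ry2 counts was 0.88 ± 0.10 in KO and 0.60 ± 0.18 in WT (n = 5 each), a 1.22-fold higher ratio in KO (exact permutation p = 0.00794, adjusted 0.0198). The lowest KO ratio was 0.778 and the highest WT ratio 0.776. Without KO 1 and KO 3 the adjusted p was 0.0595.

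P2ry13, a receptor of ADP (ENSMUSG00000036362, chromosome 3, 59115313 to 59118303), had 5.39, 5.87, 7.16, 6.53 and 6.45 CPM in KO 1 to KO 5 and 6.27, 6.74, 7.73, 6.86 and 6.12 CPM in WT 1 to WT 5. The groups overlapped broadly, with a log2 fold change of -0.10 ± 0.10 (95% interval -0.31 to 0.11; edgeR adjusted p = 0.477).

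P2ry14, the receptor of UDP-glucose (ENSMUSG00000036381, chromosome 3, 59021276 to 59061039), lies 54.3 kb from P2ry13. It had 36.7, 31.7, 31.0, 43.6 and 39.5 CPM in KO 1 to KO 5 and 14.7, 49.1, 58.7, 12.95 and 59.6 CPM in WT 1 to WT 5. WT 1 and WT 4 were below every KO library and the other WT libraries were above every KO library. In raw counts this was 692 to 889 in KO, against 297 and 253 in WT 1 and WT 4 and 917 to 1198 in the other WT libraries. The highest WT library exceeded the lowest 4.60-fold, rank 27 of 8895 genes by that measure, and the KO libraries differed 1.41-fold. Its log2 fold change of -0.10 ± 0.39 (95% interval -0.95 to 0.76; edgeR adjusted p = 0.889) therefore leaves a wide range of differences possible, and the estimate ran from -0.31 to 0.18 over the alternatives.

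Med12l overlaps P2ry13 and P2ry14 in the table and had 10 to 20 counts in KO and 7 to 17 in WT. In the GRCm38 annotation the longest transcript of P2ry14 has 1 exon of 7795 bases, and the next has 2476 bases. Which transcripts the reads of WT 1 and WT 4 came from cannot be read from gene counts. The log2 ratio of P2ry13 to P2ry14 counts was -2.53 ± 0.27 in KO and -2.24 ± 1.09 in WT (n = 5 each; exact permutation p = 0.54, adjusted 0.54).

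Per gene length, the order of the 10 genes differed at its top. Levels are FPKM, counts per kilobase of the gene length in the table and scaled to the library's total counts, without composition scaling. In KO, P2rx4 led at 27.3 ± 1.77 FPKM, then P2ry6 at 19.7 ± 0.502 and Adora2a at 17.996 ± 1.05, whose libraries overlapped those of P2ry6. In WT, Adora2a at 29.7 ± 0.714 and P2rx4 at 28.6 ± 0.808 led together with overlapping libraries, and P2ry6 followed at 17.5 ± 0.764 (mean ± SD, n = 5 each). Adora2b was at 8.43 ± 1.10 FPKM in KO and 10.7 ± 0.841 FPKM in WT, and P2rx7 at 6.06 ± 1.51 FPKM in KO and 4.89 ± 1.08 FPKM in WT. Their libraries overlapped in KO and not in WT, where those of P2rx7 overlapped those of P2ry2.

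The next 4 genes lay close together. P2ry2 was at 3.14 ± 0.157 FPKM in KO and 3.41 ± 0.377 FPKM in WT. Entpd1 was at 2.42 ± 0.0254 FPKM in KO and 3.17 ± 0.0899 FPKM in WT. P2ry13 was at 2.58 ± 0.290 FPKM in KO and 2.56 ± 0.239 FPKM in WT, and P2ry14 at 2.23 ± 0.311 FPKM in KO and 2.20 ± 1.31 FPKM in WT. Neighbours among them overlapped in both genotypes, except Entpd1 and P2ry13 in WT. Nt5e was lowest, at 0.160 ± 0.0148 FPKM in KO and 0.115 ± 0.0243 FPKM in WT. The gene lengths in the table exceed the summed exons of the GRCm38 annotation for all but 2 of the 10 genes. They were 11115 against 3927 bases for P2ry2, 10672 against 5970 for P2rx7 and 16957 against 11059 for P2ry14. These levels, the order of the genes and their closeness therefore depend on that choice of length.

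**Figure D4:**
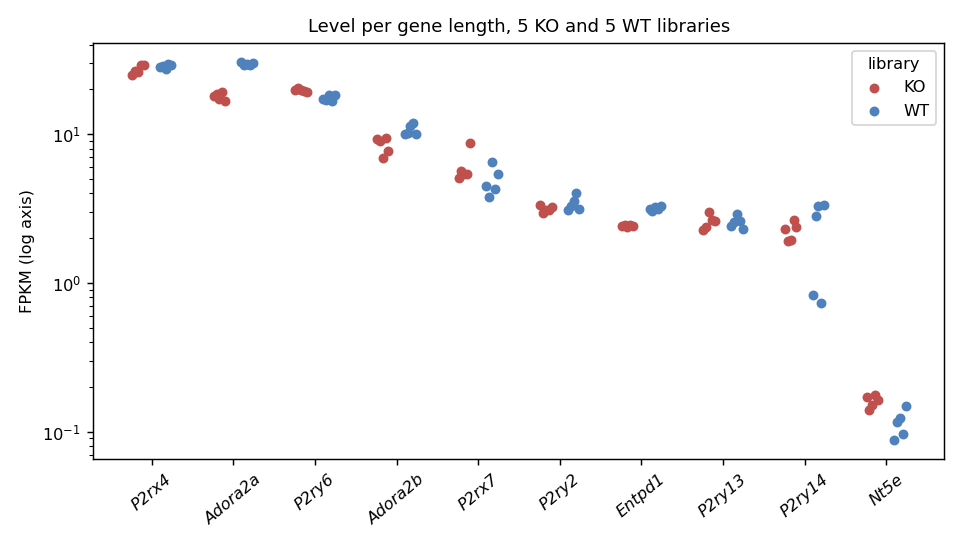
FPKM of the 10 genes in each library on a log axis, KO left of WT, ordered by the mean over all libraries. Adora2a stands level with P2rx4 in WT and near P2ry6 in KO, and WT 1 and WT 4 fall away for P2ry14.

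Other genes of the system, in lists chosen with earlier results of these data known, moved both ways. Of 62 listed genes 47 were tested, and 11 were higher and 7 lower in KO, 38.3% beside 29.1% of all tested genes; with library totals the counts were 18 higher and 5 lower. The median log2 fold change of the 47 was 0.026, beside 0.00556 over all.

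Of 4 further genes named as P2ry receptors 2 were tested. P2ry1, a receptor of ADP, averaged 9.55 ± 1.10 CPM in KO and 6.44 ± 0.55 CPM in WT, 1.48-fold higher (0.57 ± 0.09 on the log2 scale; edgeR adjusted p = 0.000766). P2ry12, an ADP receptor used as a microglial marker, averaged 0.590 CPM in KO and 0.632 CPM in WT and did not pass, P2ry4 had no count, and P2ry10, which despite its name is known as a lysophosphatidylserine receptor, reached at most 5 counts. Of 5 further ATP-gated channel genes, P2rx5 was 2.80-fold higher in KO at 1.37 ± 0.202 CPM against 0.485 ± 0.144 CPM in WT (edgeR adjusted p = 0.000274), a gene with 24 to 39 counts per KO library and 6 to 14 per WT library. P2rx1 averaged 0.874 CPM in KO and 0.708 CPM in WT without passing. P2rx3 stood at 1.52 CPM in KO 1, at 3.94 CPM in KO 3 and between 0 and 0.302 CPM in KO 2, KO 4 and KO 5, against 1.39 to 3.05 CPM in WT, and did not pass either (edgeR adjusted p = 0.549). Without KO 1 and KO 3 it was lower in KO (edgeR adjusted p = 0.00105). These are the KO libraries with its highest values, so leaving them out had to lower the KO mean, and that p-value is no support. P2rx2 had no count and P2rx6 was too low to test.

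Of 10 further ectoenzyme genes 5 were tested and 1 was called, 20% beside 29.1% of all tested genes. Bst1 (CD157, a relative of the NAD-consuming enzyme CD38) was higher in every KO library, at 641, 643, 612, 577 and 668 CPM in KO 1 to KO 5 against 445 to 457 CPM in WT (1.40-fold; 0.48 ± 0.04 on the log2 scale; edgeR adjusted p = 3.72e-06). Its neighbour Cd38 averaged 315 ± 17.3 CPM in KO and 320 ± 14.4 CPM in WT (edgeR adjusted p = 0.748). Enpp1, an enzyme that cleaves ATP to AMP and pyrophosphate, had a log2 fold change of 0.15 ± 0.07 (adjusted p = 0.121). Enpp2, the lysophospholipase autotaxin, stood at 5.07 CPM in KO 1, at 5.997 CPM in KO 3 and between 2.26 and 2.57 CPM in KO 2, KO 4 and KO 5, against 4.73 to 6.64 CPM in WT. It did not pass (edgeR adjusted p = 0.138). Without KO 3 the log2 fold change was -0.81 (edgeR adjusted p = 0.0233), and without both KO 1 and KO 3 it was -1.16 (edgeR adjusted p = 0.000227). KO 1 and KO 3 had the highest KO values of Enpp2, so leaving them out had to lower the KO mean, and these p-values are no support.

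Among 5 intracellular relatives of Entpd1, Entpd4b was 1.28-fold higher in KO (0.35 ± 0.05; edgeR adjusted p = 0.000313); its near copy Entpd4 had 3 to 8 counts, so reads could have been shared out between them. Entpd7, Entpd5 and Entpd6 had log2 fold changes of -0.09 ± 0.06, 0.07 ± 0.08 and 0.01 ± 0.09 and did not pass.

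Genes of adenosine uptake and metabolism included transporters and enzymes that were lower in KO. Slc28a2, a concentrative transporter of purine nucleosides, had 43.5, 46.4, 43.0, 44.4 and 36.2 CPM in KO 1 to KO 5, against 112, 113, 102, 121 and 113 CPM in WT 1 to WT 5. It was 2.63-fold lower in KO (-1.39 ± 0.07 on the log2 scale; edgeR adjusted p = 1.33e-07). Its near copy Slc28a2b had 50 to 93 counts in KO and 141 to 197 in WT.

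Pnp, the phosphorylase that splits inosine and guanosine, averaged 236 ± 36.9 CPM in KO and 427 ± 45.2 CPM in WT, 1.81-fold lower (edgeR adjusted p = 8.83e-05), and its near copy Pnp2, inside the span of Pnp, had 119 to 177 counts in KO and 237 to 330 in WT. Ampd3, an AMP deaminase, averaged 242 ± 10.8 CPM in KO and 344 ± 16.0 CPM in WT, 1.42-fold lower (edgeR adjusted p = 4.69e-06). Single-gene values of Slc28a2 and Pnp are uncertain where the counting could split reads between copies.

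Smaller differences were found for Slc29a3, a nucleoside transporter of lysosomes (-0.15 ± 0.04; adjusted p = 0.0143), and for the cytosolic nucleotidase genes Nt5c2 (0.20 ± 0.05; 0.0114) and Nt5c (0.16 ± 0.05; 0.0418), on the log2 scale in edgeR's test. Slc29a3 lost its call with library totals (adjusted p = 0.48), and Nt5c without KO 1, KO 3, KO 5, WT 1, WT 2 or WT 4 (0.0522 to 0.0973) and without both KO 1 and KO 3 (0.0878). Slc29a1, the main equilibrative nucleoside transporter, Adk, adenosine kinase, and Ahcy, which frees adenosine from S-adenosylhomocysteine, had 0.16 ± 0.06, -0.04 ± 0.06 and 0.08 ± 0.06 and did not pass. In all, 4 of 11 tested genes of this list were lower and 2 higher, 54.5% beside 29.1% of all tested genes.

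**Figure D5:**
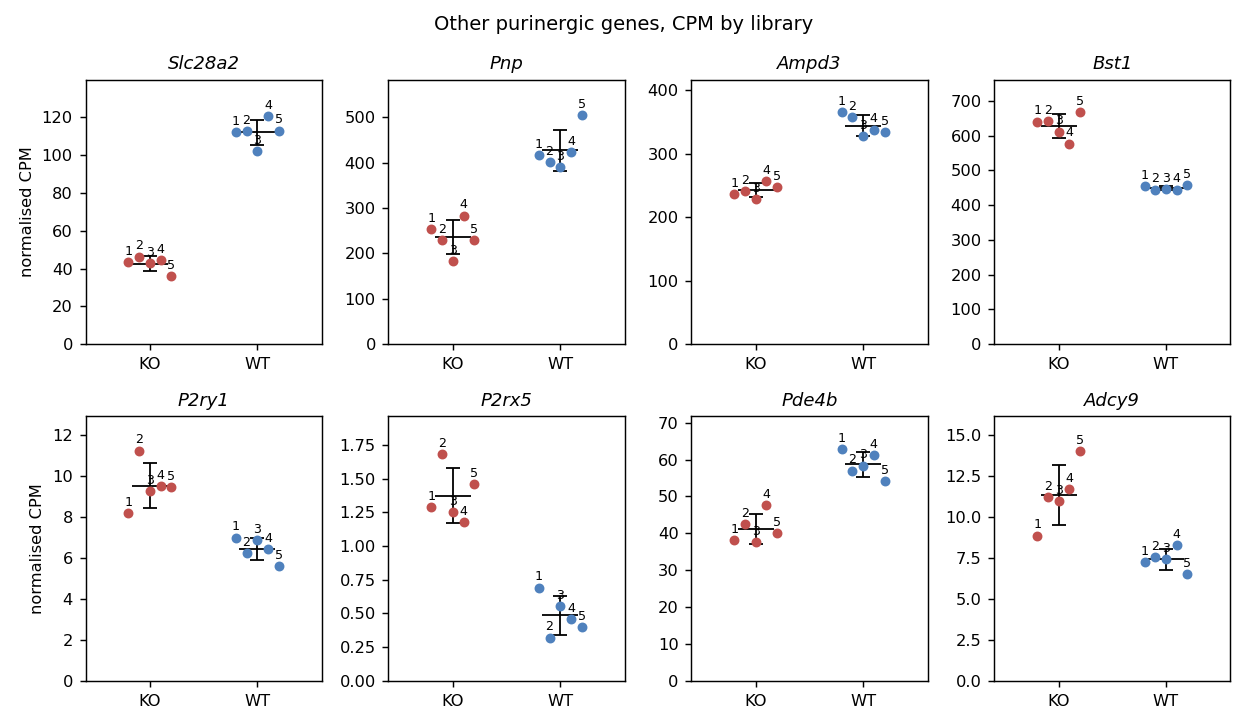
Normalised CPM by library (points, numbered) for 8 called genes of the other purinergic lists, KO left of WT, with mean and SD as black bars. Slc28a2, Pnp, Ampd3 and Pde4b lie lower in all 5 KO libraries, and Bst1, P2ry1, P2rx5 and Adcy9 higher.

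Of 8 tested genes linked to ATP release, 2 were higher and 1 lower, 37.5% beside 29.1% of all tested genes. Slc17a9, the transporter that loads vesicles with nucleotides, averaged 8.52 ± 0.443 CPM in KO and 6.18 ± 0.305 CPM in WT, 1.38-fold higher (edgeR adjusted p = 0.000275). Vdac1, an outer mitochondrial membrane channel, was higher by 0.12 ± 0.04 and Abcc1, an efflux pump, lower by -0.15 ± 0.05 on the log2 scale (edgeR adjusted p = 0.0257 and 0.0322). Both calls were fragile: Vdac1 lost its call without KO 2 or KO 5 (0.0589 and 0.0566), and Abcc1 without KO 3, KO 5, WT 1, WT 2 or WT 3 (0.0534 to 0.0843), without both KO 1 and KO 3 (0.0863), without a low-count filter (0.0892) and with library totals (0.586). Panx1, the pannexin channel of ATP release, had -0.13 ± 0.05 (adjusted p = 0.0661) and the scramblase gene Ano6 0.10 ± 0.12 (0.587).

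Lrrc8d, a subunit of volume-regulated anion channels, had 272 and 274 CPM in KO 2 and KO 4 and 275 CPM in WT 5, but 19.1 to 26.1 CPM in the other KO libraries and 24.0 to 30.0 CPM in the other WT libraries. Like P2ry14 it took distinct levels within a genotype, here in different libraries, and its log2 fold change of 0.69 ± 0.97 did not pass.

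Of 13 tested genes of the cAMP arm below the adenosine receptors, 3 were higher and 2 lower in KO, 38.5% beside 29.1% of all tested genes. The phosphodiesterase gene Pde4b, known to be induced by LPS, averaged 41.3 ± 4.09 CPM in KO and 58.7 ± 3.38 CPM in WT, 1.42-fold lower (edgeR adjusted p = 0.00016), while its relative Pde4d averaged 5.24 ± 1.07 CPM in KO and 3.10 ± 0.558 CPM in WT, 1.69-fold higher in KO (0.00545). The adenylyl cyclase gene Adcy9 was 1.53-fold higher (0.61 ± 0.11; edgeR adjusted p = 0.00155) and Prkaca, the catalytic subunit of protein kinase A, 1.19-fold higher (0.0018). Rapgef3, the cAMP sensor Epac1, was 2.79-fold lower at 0.719 ± 0.285 CPM in KO against 2.03 ± 0.387 CPM in WT (edgeR adjusted p = 0.000882). It had only 10 to 25 counts per KO library and 32 to 47 per WT library. Gnas and Gnb1, G protein subunits, and Prkar1a, a regulatory subunit of protein kinase A, had -0.01 ± 0.04, -0.11 ± 0.07 and 0.05 ± 0.03 and did not pass; with library totals Gnas turned to 0.11 (adjusted p = 0.0396).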

How the data were processed

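Per the file headers, the authors deposited whole-number counts per gene for 10 libraries, and FPKM. CASAVA 1.8, TopHat2 2.0.6 and the builds mm10 and GRCm39 are named, per the submitters' processing notes; the sources used here give no counter, annotation or strand setting. Deposited FPKM in WT equalled count over gene length and library total (largest relative spread 4.5e-06 over 8318 genes), which gave the gene lengths; 5 columns of the other group's FPKM were not used. Gene positions are as the table lists them: 0 of the 10 genes had the same position in the GRCm38 annotation, and 10 had the same span. RefSeq promoter windows are GRCm38.p6.

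Counts were tested with edgeR 4.0.16 in R 4.3.3 by the quasi-likelihood test after TMM scaling; filterByExpr at a count of 10 kept 99.87% of counts. Fold changes are KO over WT, and p-values were adjusted by Benjamini-Hochberg across the 14436 genes. SEs are the absolute log2 fold change over the root of the F statistic. A floor of 3 counts is 0.132 to 0.155 CPM per library; intervals and floors cover counting or replicate error as named, the floor counting error only. Ratios used counts plus 0.5 and exact permutation of libraries. No libraries were duplicates (chi-square per gene 9.13 to 17.5 within genotypes). Numbers in the KO column names do not tie them to samples; same-numbered libraries correlated at -0.114 to 0.184, 1 of 5 pairs over 0.1, so libraries were not paired.

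The 10 genes and the lists were chosen with earlier results of these data known. Named genes are all 10, every called gene of the other purinergic lists, up to 3 of the most abundant uncalled genes of each, the 3 genes most like Adora2a and P2rx7, and the leading gene of each marker list except 1 list that is not reported here; near copies, genes with no count and single markers were added after their values were seen. Alternatives were DESeq2 1.42.0 size factors, library totals, no filter, 50 counts in 5 libraries, the DESeq2 Wald test, limma-voom (limma 3.58.1), robust edgeR, a replicate block, each library left out and KO 1 and KO 3 left out. The procedure was tested on simulated data.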

Additional observations from a re-analysis of the deposited data

Results flagged for a closer look

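P2rx7 was flagged because KO 5 lay far from the other KO libraries: its gap to the nearest library, divided by the range of the 5, was 0.785, above the critical value of 0.71. KO 5 had 91.1 CPM, and the other KO libraries 50.8 to 59.5 CPM. Among 20 groups of 5 libraries tested (10 genes in each genotype) this was the 1 flagged, and chance flags about 1 in 20. The cause was not tested. P2ry14 in WT was not flagged, since 2 libraries were low together.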

How the results depend on the processing

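Calls of Adora2a, Entpd1 and Adora2b held under all 19 alternatives, as did 14 of the 18 calls among the other purinergic genes wherever these were tested. The number of the 10 genes called lower, 5 as reported, was 3 with library totals, 3 without a low-count filter, 3 without KO 1 and KO 3, and 3 to 5 when single libraries were left out; 2 were called higher with library totals, and 0 otherwise. With library totals 18 other purinergic genes were called higher (11 as reported), and over all genes 4231 were called higher and 1361 lower (2036 and 2164 as reported). Gnas turned to 0.11 there. With the replicate number as a block 4 of the 10 genes were called lower, P2ry2 losing its call (adjusted p = 0.0578). No call of the 10 genes changed otherwise under the block. Among other genes Abcc1 (0.0761) and Vdac1 (0.055) lost theirs. The ratio of P2rx7 to P2rx4 had a log2 difference of 0.377 as reported and 0.262 to 0.499 when single libraries were left out, the adjusted p being 0.0298 without WT 3; that of P2ry13 to P2ry14 ran from -0.549 to 0.0416, turning positive without WT 4 (adjusted p = 0.929). Without KO 1 and KO 3 the P2ry6 to P2ry2 difference was 0.299 with an adjusted p of 0.0595. The causes were not tested. Depth limits Nt5e, P2rx5 and Rapgef3, at 6 to 47 counts per library. The DESeq2 size factors, Wald test, limma-voom, robust and 50-count settings gave 5 lower and 0 higher.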
